A study of Mus musculus with 24 samples.

Results

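The voltage-gated calcium channel subunits of the mouse dorsal root ganglion (DRG) were followed across *Nfil3* genotype and time after a sciatic nerve lesion. The 10 genes were the pore-forming subunits *Cacna1a*, *Cacna1b*, *Cacna1c*, *Cacna1d*, *Cacna1e*, *Cacna1g* and *Cacna1h* and the α2δ subunits *Cacna2d1*, *Cacna2d2* and *Cacna2d3*, chosen by the gene name that the array annotation gives each probe. They were measured by 27 of the 41174 probes, and the array held 27398 gene names in all. The samples were L4 and L5 DRGs of adult male mice, labelled C57BL/6J, of the WT and Nfil3_KO genotypes. The sciatic nerve was cut and the nerve endings were rejoined, and DRGs were taken at day 2 or day 5 or, as control, from the non-injured side. There were 6 groups of 4 samples, 24 samples on 12 two-color Agilent arrays of 3 slides, with a different sample in each channel and 2 samples of each group per dye. The KO mice lacked *Nfil3* in all cells, because Cre was active in the germ line. The labels call the tissue DRG neurons, but whole ganglia were used, and macrophage, Schwann cell and satellite glia markers were well above background in every sample. Fewer cells of a type and less RNA per cell cannot be told apart in such samples.

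A voltage-gated calcium channel opens on depolarization and lets calcium into the cell. The α1 subunit forms the pore and sets the channel type: *Cacna1a* the P/Q type and *Cacna1b* the N type, which trigger transmitter release, *Cacna1c* and *Cacna1d* the L type, *Cacna1e* the R type, and *Cacna1g* and *Cacna1h* the T type, which opens at low voltage. The α2δ subunits are extracellular glycoproteins that bring channels to the membrane and the presynaptic terminal, and *Cacna2d1* encodes the protein that the drug gabapentin binds. Cytoplasmic β subunits aid folding and transport of the pore. In sensory neurons the N type supports release in the dorsal horn and the T type, mainly *Cacna1h*, sets excitability of mechanoreceptors and nociceptors. *Nfil3* encodes a bZIP repressor that is induced by the lesion.

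The α2δ genes are shown by sequence because they include the gene with the largest rise and genes with lower levels after the lesion. The 60-base probes below, in lower case throughout, were each called after the lesion, and none of them is the brightest probe of its gene. In the array annotation the *Cacna2d1* probe matches mm9 chr5:15864758-15864817 on the plus strand. The *Cacna2d2* probes, also on the plus strand, match across a splice at chr9:107328453-107367930 and at chr9:107429535-107429678. That last interval spans 144 bases, more than the 60 of the probe. In the order printed, the probes start at bases 2885, 473 and 3477 of the annotated transcripts.
Cacna2d1 A_52_P160543: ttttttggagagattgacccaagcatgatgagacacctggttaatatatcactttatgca
Cacna2d2 A_52_P147070: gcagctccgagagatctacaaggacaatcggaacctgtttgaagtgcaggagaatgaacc
Cacna2d2 A_51_P171711: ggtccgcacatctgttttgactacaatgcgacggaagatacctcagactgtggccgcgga

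The 250 bases before the start sites of the α2δ genes were taken from RefSeq promoters of build GRCm38.p6, which held 7 of the 10 genes. They are at chr5:15934441-15934690 on the plus strand for *Cacna2d1*, chr9:107399630-107399879 on the plus strand for *Cacna2d2* and chr14:29721865-29722114 on the minus strand for *Cacna2d3*. Both strands were searched from 250 bases before to 50 bases after the start for the AP-1 site TGANTCA, the cAMP response element TGACGTCA, its 5-base core TGACG, the NFIL3 site TTANGTAA, TATAAA and GGGCGG. These sequences are shown as the upstream regions of the genes that moved in opposite directions, with any TGACG in capitals.
Cacna2d1: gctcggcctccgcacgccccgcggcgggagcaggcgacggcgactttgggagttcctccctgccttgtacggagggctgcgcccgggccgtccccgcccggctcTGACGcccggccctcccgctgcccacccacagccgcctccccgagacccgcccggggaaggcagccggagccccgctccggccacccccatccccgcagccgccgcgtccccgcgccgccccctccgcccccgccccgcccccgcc
Cacna2d2: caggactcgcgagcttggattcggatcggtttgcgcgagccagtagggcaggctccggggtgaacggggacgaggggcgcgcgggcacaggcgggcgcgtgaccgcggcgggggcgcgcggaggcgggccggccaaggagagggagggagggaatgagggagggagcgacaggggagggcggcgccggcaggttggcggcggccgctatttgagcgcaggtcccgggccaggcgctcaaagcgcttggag
Cacna2d3: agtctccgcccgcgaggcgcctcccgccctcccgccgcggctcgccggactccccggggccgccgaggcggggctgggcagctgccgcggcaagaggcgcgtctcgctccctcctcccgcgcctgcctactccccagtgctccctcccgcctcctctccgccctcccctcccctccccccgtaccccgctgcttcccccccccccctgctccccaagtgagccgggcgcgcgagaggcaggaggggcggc

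The capitals in *Cacna2d1* are the single TGACG, at position -146, and no AP-1 site, full cAMP response element or NFIL3 site was found in the windows of the α2δ genes or of the other 4 genes held. No TATAAA was found in the α2δ windows, where GGGCGG occurred 7 times for *Cacna2d1*, 1 time for *Cacna2d2* and 6 times for *Cacna2d3*. Of 32851 promoters of this length, 7.81% held the AP-1 site, 1.79% the full cAMP response element, 20.8% its core, 2.32% the NFIL3 site, 13.6% TATAAA and 35.7% GGGCGG. The GC content of the printed bases was 82.4% in *Cacna2d1*, 74.4% in *Cacna2d2* and 80.0% in *Cacna2d3*. These matches describe the letters only.

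Values are log2 intensities after background correction and quantile normalization, so that 1 unit is a 2-fold difference. Levels of different probes cannot be set against each other. The probe with the highest mean stands for a gene, and its other probes are given beside it. A gene is called higher or lower where the Benjamini-Hochberg adjusted p of limma was below 0.05 over all probes. The targeted gene followed the genotype labels with an exception: *Nfil3* was 8.44 to 11.09 in the 12 WT samples and 2.82 to 6.23 in 11 KO samples, but 7.59 in KO control replicate 4, for which another label field gives day 5. This library is counted as control, as its title says. Without it and KO day 2 replicate 3, 4 genes were called at day 2 and 4 at day 5, *Cacna2d1*, *Cacna2d3*, *Cacna1h* and *Cacna1c* at both times. *Sprr1a*, a lesion-induced gene, was 5.48 to 6.12 in the 4 controls that shared an array with another control and 8.15 to 11.68 in the 4 that shared one with a lesioned sample. *Cacna2d1* was 10.97 to 11.13 in the former and 11.15 to 11.37 in the latter.

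After the lesion *Cacna2d1* rose 2.68-fold at day 2 and 3.44-fold at day 5, while *Cacna2d3*, *Cacna1h* and *Cacna1c* fell at both times and 3 of the 4 *Cacna2d2* probes, the brightest not among them, were lower. No difference between KO and WT was called. By the brightest probe, 4 of the 10 genes passed the F test for the lesion, against 26.2% of all genes. Of all genes whose brightest probe was well above background in every sample, 41.3% passed, and 8 of the 10 subunits were among these, with the same 4 called. In that class of genes 35% were called at day 2 and 37.1% at day 5. At day 2, 1 gene was called higher (9.48% of all genes) and 4 lower (12.7%), 5 in all (22.1%). At day 5, 1 was called higher (10.2%) and 3 lower (13% of all genes), 4 in all (23.2%). The median change of the 10 genes was -0.07 at day 2 and -0.19 at day 5, that of the 9 genes other than *Cacna1e*, which was never well above background, -0.07 and -0.24, and that over all genes -0.02 and -0.03.

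**Figure D1:**
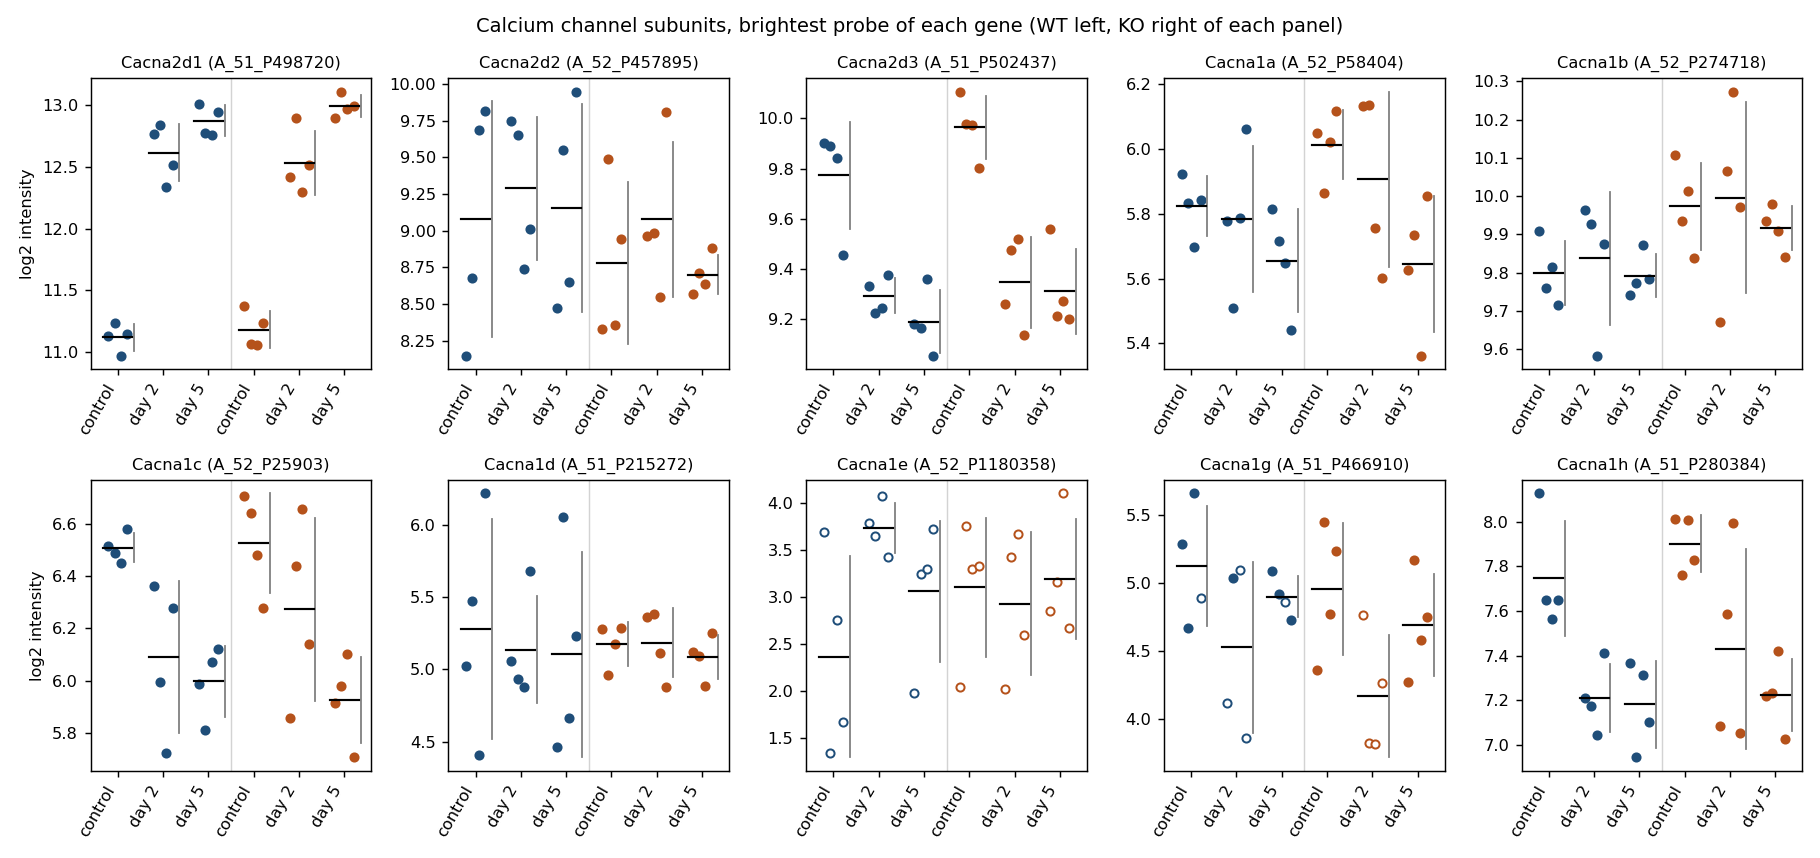
Log2 intensity (vertical axes, which differ in range) of the brightest probe of each of the 10 subunits in every sample by group, WT in blue and KO in orange. Lines are means of 4 samples, grey bars the SD, and open points are not well above background. The *Cacna2d1* points of the lesioned groups, from 12.30 to 13.11, all lie above the controls, from 10.97 to 11.37.

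*Cacna2d1* was 11.13, 11.23, 10.97 and 11.15 in WT controls, 12.77, 12.84, 12.34 and 12.52 at day 2 and 13.01, 12.78, 12.76 and 12.95 at day 5. In KO it was 11.37, 11.07, 11.06 and 11.23 in controls, 12.42, 12.90, 12.30 and 12.52 at day 2 and 12.89, 13.11, 12.97 and 13.00 at day 5. Every lesioned sample was above every control, in both genotypes. Averaged over WT and KO, the level was 1.42 ± 0.09 (SE, 8 against 8 samples) higher at day 2 and 1.78 ± 0.09 higher at day 5, a 2.68-fold and a 3.44-fold difference, with adjusted p of 4.20e-10 and 1.06e-11 in limma. Within slides 1, 2 and 3 the day 5 difference was 1.72, 1.82 and 1.80.

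The further rise of *Cacna2d1* from day 2 to day 5 was small. Day 5 was 0.36 ± 0.09 above day 2 (adjusted p = 0.0307 in limma), with overlapping samples, and this was the 1 gene of the 10 called between the lesion times (3.28% of all genes). The call was lost when any of 9 samples was left out in turn (WT day 2 replicate 3 or 4, WT day 5 replicate 1 or 4, KO day 2 replicate 1 or 3, KO day 5 replicate 2, 3 or 4), and when only arrays with both samples of the same time were used, so that 0 genes were called.

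The other *Cacna2d1* probes moved the same way. A_52_P160543, printed above, was 8.66 to 9.29 in the 8 controls, 9.74 to 10.62 at day 2 and 10.52 to 10.73 at day 5. Both lesion times lay above all controls, and they overlapped each other. The differences were 1.28 ± 0.12 at day 2 and 1.75 ± 0.12 at day 5 (adjusted p = 1.65e-07 and 1.17e-09 in limma). A_52_P94721 was well above background in 0 of 8 controls, 3 of 8 samples at day 2 and 6 of 8 at day 5. Its day 5 mean of 4.53 was 2.05-fold above a mean control bound of 3.49 (adjusted p = 0.00418 in limma for the measured difference). The bound takes in each control the higher of the probe's own value and the lowest signal well above background. It lies close to the measured control mean of 3.45, so the ratio is near the measured one. The bound is not a detection limit, and the size is uncertain.

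*Cacna2d3*, with 1 probe, was 9.90, 9.89, 9.84 and 9.45 in WT controls, 9.33, 9.22, 9.24 and 9.37 at day 2 and 9.18, 9.16, 9.36 and 9.05 at day 5. In KO it was 10.11, 9.98, 9.98 and 9.80 in controls, 9.26, 9.48, 9.52 and 9.13 at day 2 and 9.56, 9.21, 9.27 and 9.20 at day 5. The lesioned samples were below the controls of their own genotype without overlap. WT control replicate 4, at 9.45, was the lowest control. The level fell by 0.55 ± 0.08 at day 2 and by 0.62 ± 0.08 at day 5 on the log2 scale, 1.46-fold and 1.54-fold (adjusted p = 5.54e-05 and 1.04e-05 in limma). Within slides 1, 2 and 3 the day 5 difference was -0.65, -0.64 and -0.65.

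*Cacna2d2* differed by probe: 3 of its 4 probes were lower at both times, while the brightest was not called. A_52_P457888 was 7.59, 7.63, 7.92 and 7.69 in WT controls, 7.24, 6.83, 6.33 and 7.20 at day 2 and 6.45, 6.43, 6.72 and 6.35 at day 5. In KO it was 7.90, 7.76, 7.46 and 7.64 in controls, 6.62, 7.43, 7.62 and 6.47 at day 2 and 6.76, 6.70, 6.62 and 6.43 at day 5. Day 5 lay below control in every sample, but KO day 2 replicates 2 and 3 lay close to or among the KO controls. The differences were -0.73 ± 0.16 at day 2 and -1.14 ± 0.16 at day 5 (adjusted p = 0.00192 and 1.61e-05 in limma). A_52_P147070, across the splice near the start of the transcript, differed by -0.69 ± 0.15 and -0.87 ± 0.15 (adjusted p = 0.00242 and 0.00025 in limma). It was well above background in 21 samples. A_51_P171711 was well above background in 7 of 8 controls, 3 of 8 samples at day 2 and 1 of 8 at day 5. Its measured mean was 1.57-fold lower at day 2 and 1.52-fold lower at day 5 (adjusted p = 0.0076 and 0.0112 in limma). These sizes are uncertain, since few lesioned samples were well above background.

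The brightest *Cacna2d2* probe, A_52_P457895, starts at base 4752 of the annotated transcript, and A_52_P457888 at base 4971. It differed from control by 0.25 ± 0.28 at day 2 and -0.0042 ± 0.28 at day 5 (adjusted p = 0.599 and 0.995 in limma). Its values followed the slide: 8.15 to 8.65 on slide 1, 8.68 to 9.02 on slide 2 and 9.49 to 9.95 on slide 3, with 8 samples each from several groups. The 3 slides did not overlap, and the groups were not balanced over them. Of 40895 probes with all values, 7 (0.0171%) had 3 slides without overlap and slide 3 highest or lowest. Probes with slide 3 between the others were not counted. A_52_P457888, in contrast, was 6.45 to 7.90, 6.33 to 7.64 and 6.35 to 7.92 on the 3 slides. With the slide as a block the brightest probe differed by 0.15 at both times (adjusted p = 0.201 and 0.178 in limma), and the other 3 probes stayed lower at both times.

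**Figure D2:**
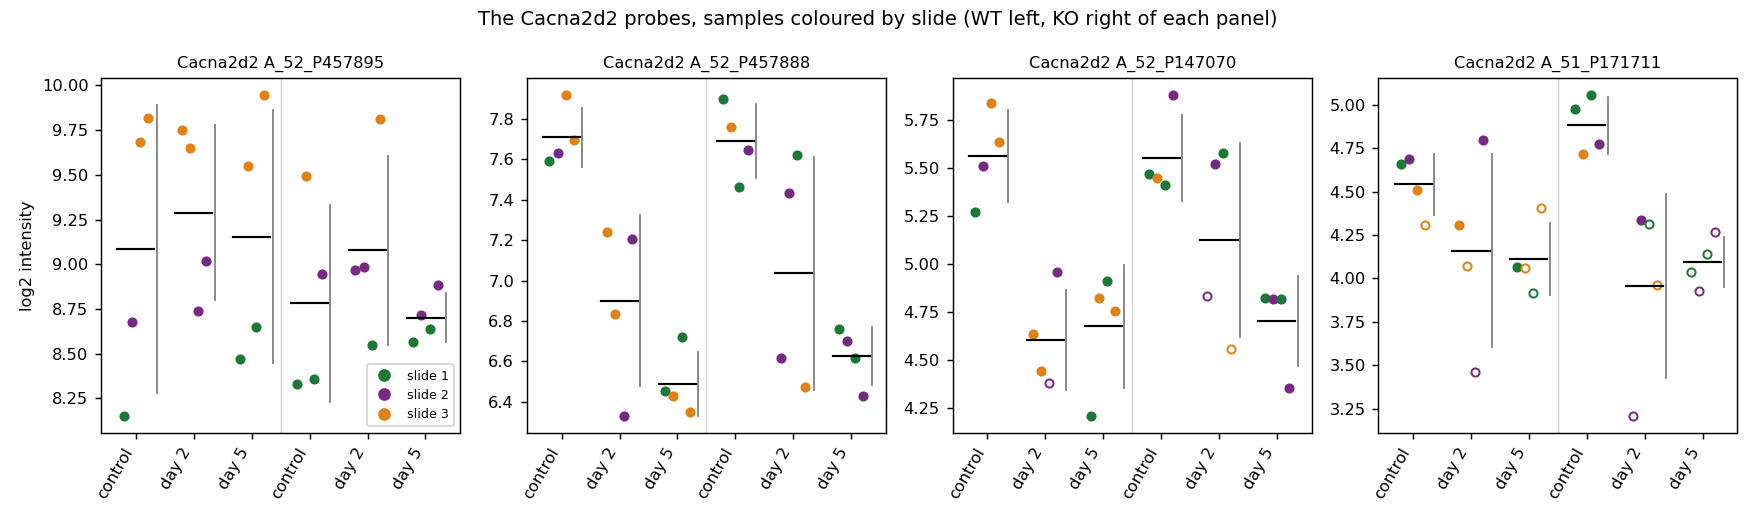
Log2 intensity of the 4 *Cacna2d2* probes in every sample by group, coloured by slide. Lines are means of 4 samples, grey bars the SD, and open points are not well above background. The slides lie apart in the first panel, from 8.15 to 9.95, and not in the others, where control is above day 5.

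*Cacna1h*, the T-type pore of sensory neurons, was 8.13, 7.65, 7.56 and 7.65 in WT controls, 7.21, 7.17, 7.05 and 7.41 at day 2 and 7.37, 6.94, 7.31 and 7.10 at day 5. In KO it was 8.01, 7.76, 8.01 and 7.83 in controls, 7.09, 7.59, 7.99 and 7.05 at day 2 and 7.22, 7.23, 7.42 and 7.03 at day 5. All lesioned samples except KO day 2 replicates 2 and 3 were below the lowest control, and replicate 3 was at the level of the KO controls. The differences were -0.50 ± 0.12 at day 2 and -0.62 ± 0.12 at day 5 (1.42-fold and 1.54-fold, adjusted p = 0.00558 and 0.000806 in limma). Of the other *Cacna1h* probes, A_52_P588378 was called lower at day 5 (adjusted p = 0.0248 in limma). No size is given for it, since 1 of 8 controls and 0 of 8 day 5 samples were well above background. A_52_P543016 and A_52_P611158, well above background in 22 and 15 samples, differed by -0.21 ± 0.17 and -0.27 ± 0.16 at day 5 and were not called.

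*Cacna1c*, an L-type pore, was 6.52, 6.49, 6.45 and 6.58 in WT controls, 6.36, 6.00, 5.72 and 6.28 at day 2 and 5.99, 5.81, 6.07 and 6.12 at day 5. In KO it was 6.70, 6.64, 6.48 and 6.28 in controls, 5.86, 6.44, 6.66 and 6.14 at day 2 and 5.92, 5.98, 6.10 and 5.71 at day 5. At day 5 every sample was below every control. At day 2 the samples overlapped the controls in KO and not in WT. The differences were -0.34 ± 0.11 and -0.55 ± 0.11 (adjusted p = 0.0351 and 0.000818 in limma). The day 2 call was lost with the slide as a block (adjusted p = 0.0725, in a range of 0.00539 to 0.105 over all settings in limma), with the array as a random block (adjusted p = 0.0675), with the replicate block (adjusted p = 0.0528), with probes averaged (adjusted p = 0.105) and without any of 9 samples in turn (WT control replicate 1, 2 or 4, KO control replicate 1 or 2, WT day 2 replicate 2 or 3, KO day 2 replicate 1 or 4). The second probe, A_51_P376996, differed by -0.33 ± 0.17 and -0.36 ± 0.17 and was not called (adjusted p = 0.206 and 0.16 in limma).

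The day 2 values are also given by the kind of array. On arrays that held samples of a single time point, 4 against 4 samples, the day 2 difference was -0.78 for *Cacna1h*, -0.59 for *Cacna1c*, -1.12 for *Cacna2d2* A_52_P457888 and -0.71 for *Cacna2d3*. On arrays that held samples of different time points it was -0.23, -0.08, -0.34 and -0.39 in the same order. For *Cacna2d1* it was 1.47 and 1.37. At day 5 the kinds of array gave -0.53 and -0.71 for *Cacna1h* and -0.50 and -0.61 for *Cacna1c*. KO day 2 replicate 3, the highest day 2 sample for *Cacna1h*, *Cacna1c* and A_52_P457888, shared its array with KO control replicate 1, and its *Sprr1a* was 12.60, lowest of all lesioned samples. The part of the shared array in these values was not tested. Without this sample the day 2 differences of *Cacna2d3*, *Cacna1h* and *Cacna1c* kept their sign and their call.

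*Cacna1g*, the other T-type pore, was near background. Its probe A_51_P466910 was well above background in 15 of 24 samples, in 7 of 8 controls, in 1 of 8 samples at day 2 and in 7 of 8 at day 5. The values ranged from 4.36 to 5.66 in controls, from 3.81 to 5.09 at day 2 and from 4.27 to 5.17 at day 5. Day 2 was 0.69 ± 0.22 lower than control (adjusted p = 0.0261 in limma), day 5 differed by -0.24 ± 0.22 (adjusted p = 0.516), and the F test for the lesion was not passed (adjusted p = 0.0562). The day 2 call was lost without any of 6 samples in turn (WT control replicate 3, KO control replicate 2 or 4, WT day 2 replicate 1 or 4, KO day 2 replicate 2). It was also lost with probes averaged, on same-time arrays, and without both KO control replicate 4 and KO day 2 replicate 3 (adjusted p = 0.114, 0.148 and 0.0888, in a range of 0.00153 to 0.148 over all settings in limma). A_52_P611610, well above background in 2 of 8 controls, 2 of 8 samples at day 2 and 0 of 8 at day 5, was not called.

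*Cacna1b*, the N-type pore, was not called by its brightest probe, which was 9.72 to 10.11 in controls, 9.58 to 10.27 at day 2 and 9.74 to 9.98 at day 5. The differences were 0.03 ± 0.08 (95% interval -0.13 to 0.19) and -0.03 ± 0.08 (-0.19 to 0.13). Its second probe, A_51_P206573, was called higher. It was 7.46, 7.17, 7.29 and 7.25 in WT controls, 7.80, 7.69, 7.39 and 7.54 at day 2 and 7.51, 7.39, 7.50 and 7.43 at day 5. In KO it was 7.37, 7.33, 7.43 and 7.23 in controls, 7.76, 7.97, 7.74 and 7.68 at day 2 and 7.60, 7.70, 7.52 and 7.65 at day 5. KO samples did not overlap their controls, and WT samples did. The differences were 0.38 ± 0.07 and 0.22 ± 0.07 (adjusted p = 0.00026 and 0.0193 in limma). With both probes averaged, *Cacna1b* was called higher at day 2 (0.20 ± 0.06, adjusted p = 0.0278, in a range of 0.0278 to 0.965 over all settings in limma) and not at day 5.

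*Cacna1a*, the P/Q-type pore, was 5.70 to 6.12 in controls, 5.51 to 6.14 at day 2 and 5.36 to 5.85 at day 5. The differences were -0.07 ± 0.10 and -0.27 ± 0.10, and neither was called (adjusted p = 0.669 and 0.052 in limma). Day 5 was called lower with the slide as a block (adjusted p = 0.00595, in a range of 0.00595 to 0.357 over all settings in limma), with the array as a random block (adjusted p = 0.0445), with the kind of array as a block (adjusted p = 0.0461) and after a filter that kept a probe only if 4 or more samples were well above background (adjusted p = 0.0332). It was also called without any of 8 samples in turn (KO control replicate 2, WT day 2 replicate 2 or 4, KO day 2 replicate 1, 2 or 4, WT day 5 replicate 1, KO day 5 replicate 4). A_52_P210424 gave -0.16 ± 0.14 and -0.24 ± 0.14.

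*Cacna1d*, the other L-type pore, was 4.41 to 6.22 in controls, 4.88 to 5.68 at day 2 and 4.47 to 6.05 at day 5 by its brightest probe. The differences of -0.07 ± 0.23 and -0.13 ± 0.23 were not called. Of its 3 other probes, A_51_P251213, well above background in 13 samples, differed by -0.64 ± 0.12 at day 2 and -0.37 ± 0.12 at day 5 (adjusted p = 0.000427 and 0.0258 in limma). A_52_P47518 and A_51_P215266, well above background in 6 and 0 samples, were not called. None of the 3 *Cacna1e* probes was well above background in any sample. No difference is given for this R-type pore, since its measured values of 0.28 to 4.19 bear no order.

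**Figure D3:**
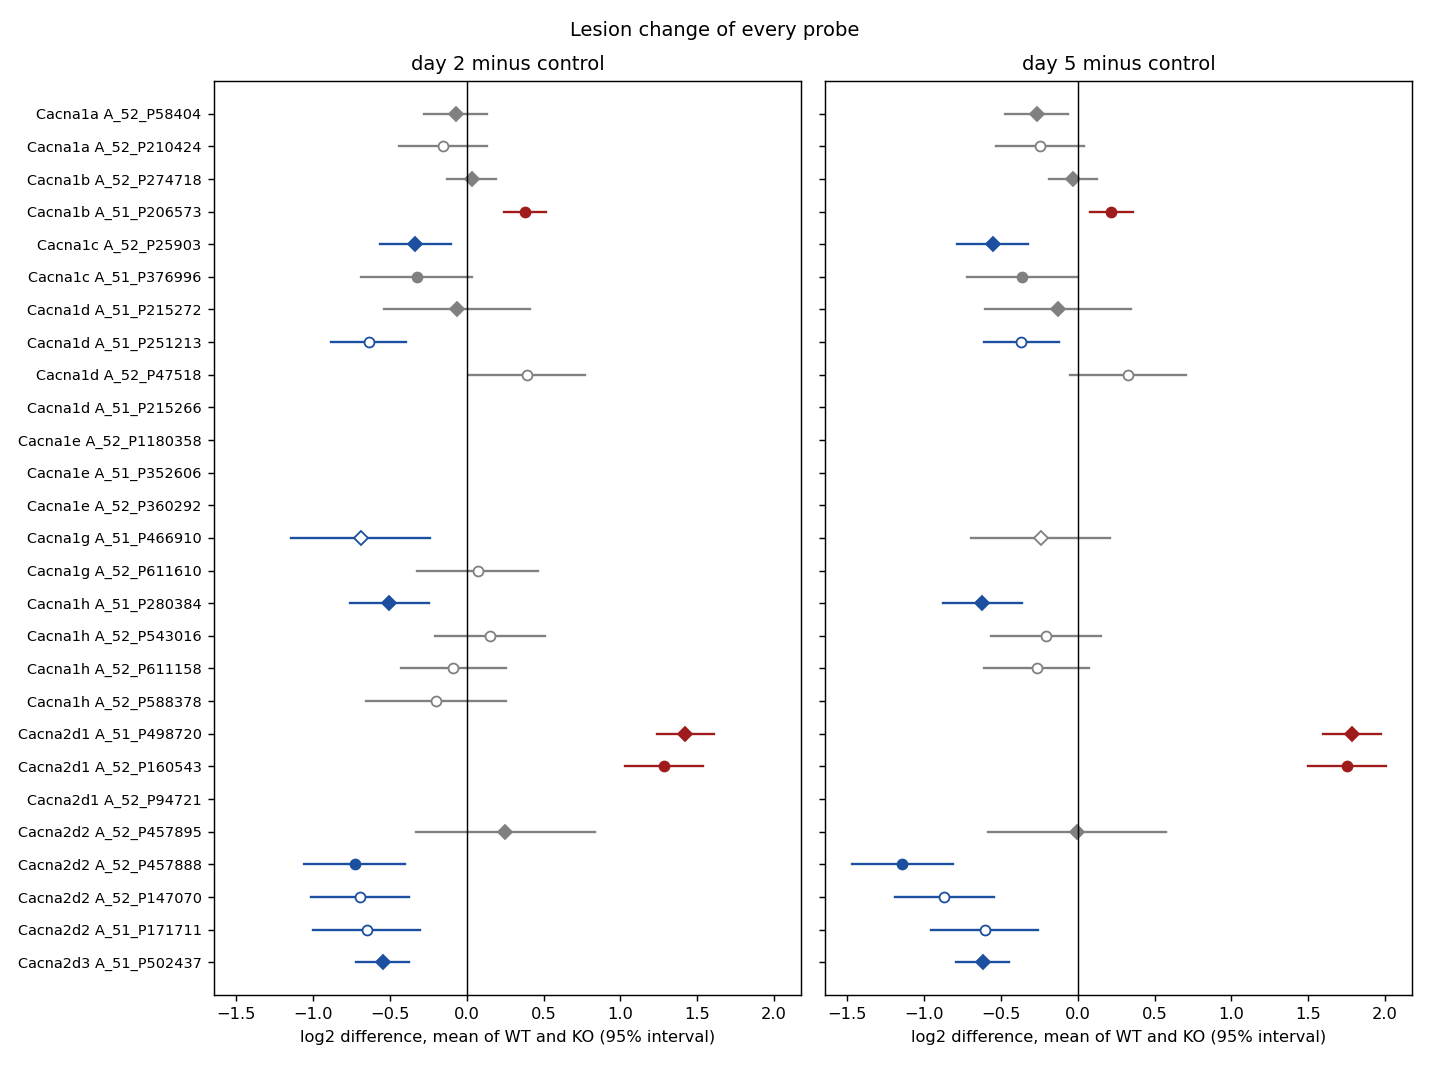
Log2 difference from control (horizontal axis) of all 27 probes at day 2 and day 5, averaged over WT and KO, with 95% intervals. Diamonds are the brightest probe of a gene, open symbols probes not well above background in all 24 samples, red called higher, blue called lower, grey not called. No point is drawn where the controls or that time had 0 samples well above background. The *Cacna2d1* probes drawn, the brightest among them, lie at 1.28 to 1.78, and *Cacna2d2* A_52_P457888 at -0.73 and -1.14.

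With any probe of a gene counted, 7 of the 10 genes passed the lesion F test (29.3% of all genes by the same count), 8 were called at day 2 (25.2%) and 7 at day 5 (25.7%). By this count 4 genes were called in WT at day 2 (12.5% of all genes) and 5 in KO (13.7%). The subunits had more probes per gene, 27 for 10 genes against 41174 for 27398. Probes of *Cacna1b*, *Cacna1c*, *Cacna1d*, *Cacna1g*, *Cacna1h* and *Cacna2d2* differed among themselves in their calls.

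Each genotype gave the same direction for the genes called. In WT, *Cacna2d1* and *Cacna2d3* were called at day 2, 2 of 10 genes (11% of all genes), and these with *Cacna1c* and *Cacna1h* at day 5, 4 of 10 (13.9%). In KO these genes were called at the same times, 2 of 10 at day 2 (11.8% of all genes) and 4 of 10 at day 5 (12.7%). *Cacna2d1* rose by 1.50 ± 0.13 and 1.76 ± 0.13 in WT and by 1.35 ± 0.13 and 1.81 ± 0.13 in KO. *Cacna2d3* differed by -0.48 ± 0.12 and -0.58 ± 0.12 in WT and by -0.62 ± 0.12 and -0.66 ± 0.12 in KO. *Cacna1h* differed at day 5 by -0.57 ± 0.18 in WT and -0.68 ± 0.18 in KO, and *Cacna1c* by -0.51 ± 0.16 and -0.60 ± 0.16. The times of a genotype share their control samples. The day 5 calls of *Cacna1c* and *Cacna1h* in WT were both lost when any of the WT controls 1, 2 and 4 or the second WT sample of day 5 was omitted, and in KO when the fourth KO sample of day 5 was omitted, which left 2 genes.

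The direct comparison of KO with WT asks whether the subunits depend on *Nfil3*. No subunit was called in controls (0% of all genes), at day 2 (0.0146%) or at day 5 (0.0109%), and none had a time*genotype interaction (0%). By the brightest probes 0 subunits reached an unadjusted p below 0.05 in limma in any of these 4 tests, with smallest unadjusted values of 0.113, 0.127, 0.263 and 0.119. The 0.119 of the interaction belongs to *Cacna1e*, which was never well above background. Among the other subunits the smallest unadjusted p of the interaction was 0.516 in limma, for *Cacna1c*. Leaving out *Cacna1e*, and at day 2 also *Cacna1g*, which had 0 KO samples well above background, the differences ran from -0.30 to 0.19 in controls, from -0.21 to 0.22 at day 2 and from -0.45 to 0.12 at day 5. *Cacna2d1* differed by 0.06 (95% interval -0.20 to 0.33), -0.08 (-0.35 to 0.18) and 0.12 (-0.15 to 0.38). For *Cacna2d2*, whose brightest probe followed the slide, the interval was wider, -1.27 to 0.37 at day 5. The WT samples of day 5 were on slides 1 and 3 and the KO samples on slides 1 and 2. This difference therefore cannot be told apart from that between slides. The intervals hold the differences that the values of 4 samples a group leave possible, and they are not detection limits. In controls *Nfil3* itself differed by -3.98 ± 0.81 (unadjusted p = 8.68e-05 in limma) and was not called (adjusted p = 0.999938 in limma). It was called lower at day 2 and day 5 (adjusted p = 0.00819 and 0.00259 in limma). So 0 calls, above all in controls, do not show that the subunits are independent of *Nfil3*.

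Over all 27 probes, 0 reached an unadjusted p below 0.05 in controls, 3 at day 2, 0 at day 5 and 1 in the interaction in limma, and 0 after adjustment. Of the 3 at day 2, *Cacna1d* A_51_P215266 and *Cacna1e* A_52_P360292 were well above background in 0 samples. The third, *Cacna2d2* A_52_P147070, was so in 21 samples. The probe in the interaction was *Cacna1d* A_51_P251213, which differed at day 2 by -0.96 ± 0.17 in KO and by -0.33 ± 0.17 in WT (adjusted p = 0.000619 and 0.266 in limma). It was well above background in 3 of 4 KO controls and 1 of 4 KO samples at day 2. In WT it was so in 2 of 4 samples at each of these times. Both sizes are therefore uncertain.

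**Figure D4:**
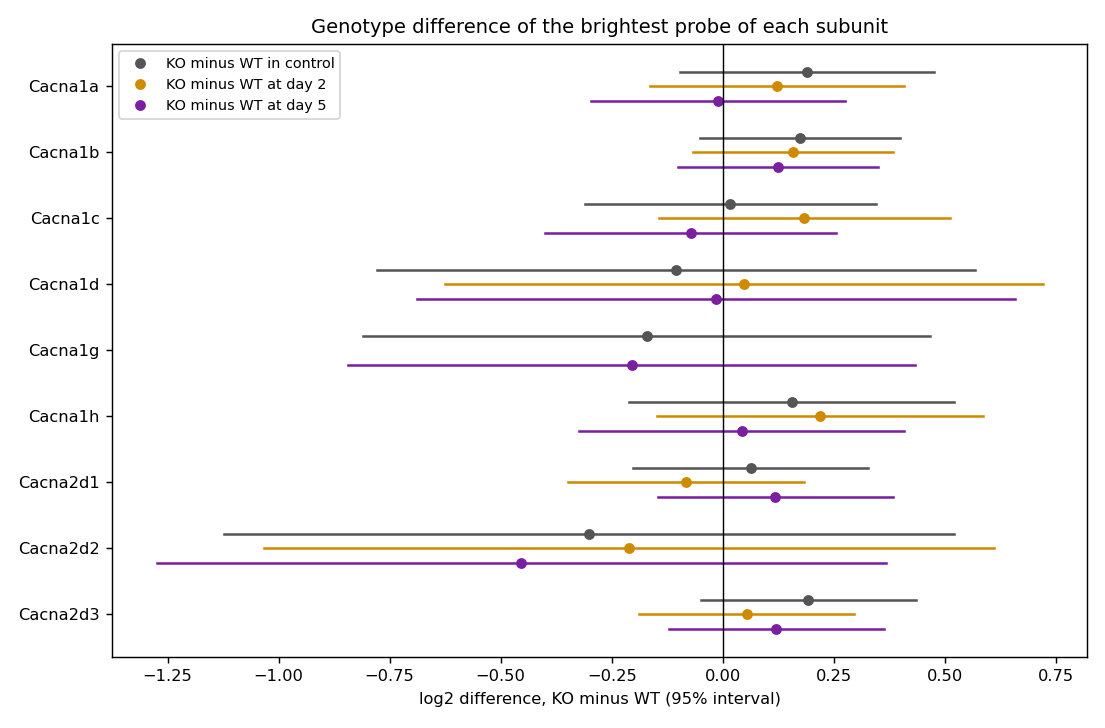
Log2 difference of KO minus WT (horizontal axis) for the brightest probe of 9 subunits in control, at day 2 and at day 5, with 95% intervals. *Cacna1e*, and *Cacna1g* at day 2, are not drawn because a group had 0 samples well above background. Every interval drawn crosses 0, and the lowest is that of *Cacna2d2* at day 5, from -1.27 to 0.37.

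The remaining genes of the channel complex were counted by the lesion F test. It was passed by 26.2% of all genes and by 41.3% of those whose brightest probe was well above background in every sample. Of the 4 β subunits 1 was lower: *Cacnb4* differed by -0.51 ± 0.13 at day 2 and -0.71 ± 0.13 at day 5 (lesion F adjusted p = 0.00076 in limma), and *Cacnb1*, *Cacnb2* and *Cacnb3* did not pass the F test, although *Cacnb3* was called lower at day 5 alone (-0.23 ± 0.08, adjusted p = 0.0484 in limma). Of the 8 γ subunits 2 were lower, *Cacng2* (-0.67 ± 0.11 and -0.43 ± 0.11) and *Cacng5* (-0.67 ± 0.11 and -0.44 ± 0.11), which are known as auxiliary subunits of AMPA receptors. The 3 other pore genes *Cacna1f*, *Cacna1i* and *Cacna1s* and the α2δ gene *Cacna2d4* did not pass. Among 12 channel regulators 2 were higher and 5 lower, and *Cabp1*, a calcium-binding protein, was called lower at day 2 alone (-0.30 ± 0.10, adjusted p = 0.0365 in limma). *Stac*, an adaptor that slows L-type inactivation, rose by 0.96 ± 0.10 and 0.97 ± 0.10, and *Rem1*, a small GTPase that inhibits the channel, by 0.51 ± 0.15 and 0.53 ± 0.15 with 9 samples well above background. The related GTPase *Rem2* fell by 1.44 ± 0.22 and 1.25 ± 0.22 on the log2 scale.

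Of 6 ligands and partners of α2δ proteins 1 passed the F test. *Comp*, a thrombospondin also named Thbs5, differed by -1.79 ± 0.18 and -2.40 ± 0.18, while *Thbs2*, *Thbs3*, *Thbs4* and *Lrp1* did not pass it. *Thbs1* did not pass it either (adjusted p = 0.0563 in limma), but it was called lower at day 2 alone (-0.88 ± 0.27, adjusted p = 0.0242 in limma) and not at day 5 (-0.40 ± 0.27, adjusted p = 0.362).

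**Figure D5:**
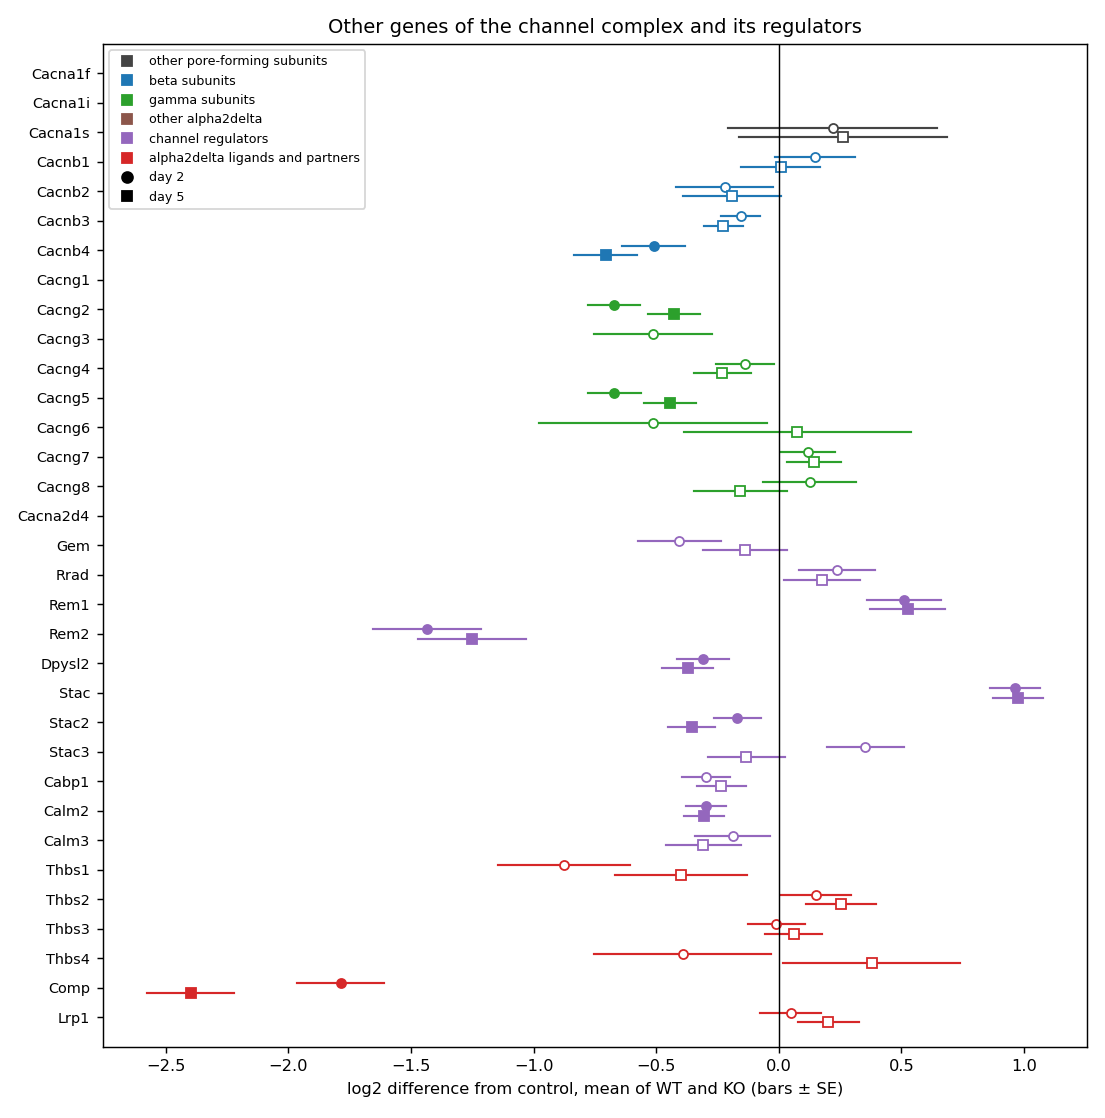
Log2 difference from control (horizontal axis, bars are SE) of the other pore-forming, β, γ and α2δ subunits, channel regulators and α2δ partners at day 2 (circles) and day 5 (squares), averaged over WT and KO. Filled symbols passed the lesion F test, no point is drawn where the controls or that time had 0 samples well above background, and 1 regulator is not shown. *Comp* lies lowest, at -1.79 and -2.40, and *Stac* at 0.96 and 0.97.

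Of 20 measured genes of calcium stores and pumps 3 were higher, 8 lower and 1 mixed. A mixed gene passed the lesion F test with opposite directions at day 2 and day 5. Of these 20 genes, 18 were well above background in every sample, a class in which 41.3% passed (26.2% of all genes). The inositol trisphosphate receptor gene *Itpr1* rose by 1.58 ± 0.07 and 2.37 ± 0.07, and *Stim2*, a sensor of store calcium, by 0.33 ± 0.07 and 0.40 ± 0.07. The plasma membrane pump *Atp2b3* differed by -0.61 ± 0.11 and -0.88 ± 0.11 and the store-operated channel *Orai2* by -0.59 ± 0.10 and -0.64 ± 0.10. Of 11 presynaptic release partners 1 was higher, 7 lower and 1 mixed, and all 11 were in the same class. *Stx1a*, a syntaxin that binds the N type, rose at day 5 by 0.42 ± 0.08, and *Cplx2* (-0.85 ± 0.12 and -1.12 ± 0.12) and *Snap25* (-0.63 ± 0.10 and -0.76 ± 0.10), of the release machinery, fell.

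Cell type markers, counted by the same F test, moved at the same time. This test was passed by 26.2% of all genes and by 41.3% of those well above background in every sample. All 12 neuron and all 7 macrophage markers were among the latter. Of 12 neuron markers 9 were lower and 2 higher. Their summed level, the log2 of the added intensities of each gene's brightest probe, was 19.05 to 19.37 in controls and 18.72 to 19.05 at day 5. These ranges overlap slightly, and the brightest markers weigh most in such a sum. Of 7 macrophage markers all 7 were higher, with a summed level of 10.31 to 11.23 in controls and 12.15 to 12.78 at day 5. All 4 proprioceptor markers and 2 of 3 measured nociceptor markers were lower. Of 6 Schwann cell markers 2 were higher, of 4 satellite glia markers 1 was higher and 2 lower, of 4 low-threshold mechanoreceptor markers 1 was lower and 1 mixed, of 3 endothelium markers 1 was higher, of 4 smooth muscle and pericyte markers 2 were higher and 1 lower, and of the T cell and fibroblast markers 0 passed. The summed level of 3 skeletal muscle markers, none called, ran from 6.40 to 13.13 and was 10.60 to 13.13 in KO day 5 replicate 1, KO day 2 replicates 1 and 4 and WT control replicate 1 and at most 8.86 in the others. The part of these cells in the subunit changes was not tested.

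The genes most alike in pattern to *Cacna2d1* over the 24 samples, among 21541 probes well above background in every sample, were *Slc4a8*, a bicarbonate transporter (r = 0.988), *Smad1*, *Wfdc3*, *Mmp16* and *Rhoq* (0.980). Those most like *Cacna1h* were *Runx1*, a transcription factor of nociceptors (r = 0.960), the potassium channel gene *Kcnt1*, *Rgs3*, *Ghr* and *Tanc1* (0.943). The correlations include the lesion difference that the samples share. After the group means were taken out, *Slc4a8* was at 0.869 and *Rhoq* at 0.344 with *Cacna2d1*, and *Kcnt1* at 0.936 and *Tanc1* at 0.865 with *Cacna1h*.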

How the data were processed

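RNA of L4 and L5 DRGs of 24 samples was hybridised to 12 two-color Agilent arrays. The authors scanned the arrays and deposited spot intensities from Agilent Feature Extraction 10.7.3.1, not normalized, with flags. Each channel was used as a sample: Edwards background correction (mean foreground, median local background), log2 and quantile normalization over 24 channels with limma 3.58.1 in R 4.3.3 (packages statmod 1.5.0 and data.table, version 1.17.8). Control spots and outlier spots were omitted and replicate spots of each probe averaged, giving 41174 probes with 417 missing values, which the fits skipped. Coordinates and gene names are those of the array annotation (mm9). Of the probes, 54.6% to 72.4% per sample were well above background, and 0 spots were saturated. Array signals carry no read depth, and the number of arrays limits the precision.

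All 6 groups (genotype by time, from the sample titles) entered 1 linear model, and contrasts and F tests were taken with moderated statistics (lmFit, eBayes) and Benjamini-Hochberg adjustment over all probes. The labels call the samples biological replicates, and nothing ties control and lesioned samples of a mouse. The code was run on simulated data with independent noise and no array or slide effects, where the median estimated change came close to the planted one. This does not measure how often real changes are called. The members and gene lists were chosen with earlier results of these data known. Named genes were all members, the label checks and, from each list, up to 2 genes that rose and 2 that fell with the smallest lesion F p; 1 gene that this rule names is not reported here. For *Cacna2d1* and *Cacna1h*, the called members with the highest and lowest day 5 difference, 5 genes of like pattern were named. The alternatives were 15 settings, 24 samples left out in turn and 2 settings added after seeing the data. Same-numbered samples of different groups had a median correlation of residuals of 0.057 over 60 pairs, so numbers were not taken to pair samples. Samples that shared an array had a median correlation of 0.432 over 12 pairs, with a lowest of 0.0141, and the array as a random block, with a consensus correlation of 0.266, was 1 of the alternatives.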

Additional observations from a re-analysis of the deposited data

Results flagged for a closer look

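In 60 groups of 4 samples (10 genes by 6 groups), 2 had a sample far from the other 3, with a gap, as a share of the group's range, above Dixon's critical value at the 95% level. Chance gives about 1 in 20 such groups. *Cacna1h* was 8.13 in WT control replicate 1 and 7.56 to 7.65 in the other WT controls, a ratio of 0.843, and the summed skeletal muscle markers were 10.61 in that sample. *Cacna2d3* was 9.45 in WT control replicate 4 and 9.84 to 9.90 in the others, a ratio of 0.866, and *Sprr1a* was 11.68 in that sample, which shared its array with WT day 5 replicate 2. Whether the muscle markers or the shared array bear on these values was not tested.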

How the results depend on the processing

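*Cacna2d1* and *Cacna2d3* kept direction and call at both times under all alternatives run (day 5 from 1.54 to 1.85 and from -0.67 to -0.56), and *Cacna1c* did so at day 5. KO against WT and the interaction gave 0 called genes throughout. *Cacna1h* was not called at day 2 with probes averaged (-0.16, adjusted p = 0.294) or at day 5 on the 12 samples of same-time arrays (-0.53, adjusted p = 0.0599). With any probe of a gene counted, 7 genes passed the lesion F test (29.3% of all genes), 8 were called at day 2 (25.2%), 7 at day 5 (25.7%), 4 in WT at day 2 (12.5%) and 5 in KO at day 2 (13.7%). With the array as a random block 5 genes passed the lesion F test, 4 were called at day 2, without *Cacna1c*, and 5 at day 5, with *Cacna1a*. Without background correction 5 were called in WT and 4 in KO at day 2, and with processed signals 4 in WT at day 2. On same-time arrays 1 was called in WT at day 2, 1 in WT at day 5, 1 in KO at day 5 and 0 between day 5 and day 2. That last count was also 0 with probes averaged and without KO control replicate 4 and KO day 2 replicate 3. Leaving out 1 sample in turn gave 3 to 5 called genes at day 2 (3 without KO control replicate 2), 0 to 1 between day 5 and day 2, 2 to 4 in WT at day 5 and 2 to 4 in KO at day 5. The share of all genes called was taken for the main fit and the count with any probe, not for the other settings. Their counts therefore do not tell a change in the subunits from a change over all genes. Uncalled differences changed sign as follows. With probes averaged, *Cacna1b* was 0.0933 at day 5 and *Cacna2d2* -0.46 at day 2, now called. *Cacna1b* at day 2 (0.20) and *Cacna2d2* at day 5 (-0.66) were also called with probes averaged, without a change of sign. On same-time arrays, *Cacna1b* was -0.13 and *Cacna1d* 0.12 at day 2. At day 5 *Cacna2d2* was 0.0154 with loess and 0.15 with the slide as a block. *Cacna1d* was 0.0296 at day 2 with median foreground. Without the 2 libraries together, *Cacna1b* was -0.0386 at day 2 and *Cacna2d2* 0.0234 at day 5. Leaving out 1 sample, *Cacna1b* ran from -0.0161 to 0.0843 and *Cacna1d* from -0.21 to 0.0908 at day 2, and at day 5 *Cacna1d* from -0.29 to 0.0255 and *Cacna2d2* from -0.16 to 0.12. The cause was not tested. The replicate block gave 4 genes at day 2, 4 at day 5 and 3 in WT at day 5 (*Cacna1c* was no longer called at day 2), with 9 of 24 samples correlating best with their own number. Probes not well above background limit *Cacna1g* and *Cacna1d*, and no difference is given for *Cacna1e*.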
